A study of Mus musculus with 34 samples.

Results

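Cardiomyocyte-like cells made by 2 routes were compared: 4-week induced cardiomyocytes (iCM, 2 arrays) and cardiomyocytes differentiated for 29 days from the second iPSC line (iPSC2-CM D29, here D29, 2 arrays). These 4 arrays were chosen by their sample titles from the 34 of the series. All cells came from CD1 mice of aMHC-GFP genotype, in which a heavy-chain promoter drives a fluorescent reporter in heart muscle cells. For iCM, a retrovirus carried Mef2c, Gata4 and Tbx5 as a single polycistronic message into cardiac fibroblasts of pups at postnatal day 1.5. D29 cells came from iPSCs made by giving cardiac fibroblasts Oct4, Sox2, Klf4 and cMyc. Both were kept in the same growth-factor medium, so that medium is shared by the groups compared. For orientation the text also cites neonatal cardiomyocytes (neoCM), neonatal cardiac fibroblasts (neoCF) and the same iPSC line at day 9 (D9), with 2 arrays each. Also cited are cells 14 days after the 3 factors (MGT D14) and cells labelled LacZ at day 14 (LacZ D14), with 2 arrays each. No sorting step is described, so an RNA sample can hold several cell types. The D29 cells represent 1 iPSC line, and nothing in the labels tells if the paired arrays stem from separate cultures, so p-values measure only the spread between these samples.

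A heart muscle cell is built around the sarcomere, in which myosin heavy and light chains pull on actin under the control of troponin and calcium. Atria and ventricles use different light chains and natriuretic peptides, and the developing heart replaces fetal isoforms by adult ones. Direct conversion takes a fibroblast to a muscle programme without a pluripotent stage, while iPSC differentiation passes through mesoderm and cardiac progenitors.

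Levels are log2 fluorescence relative to the 75th percentile of each array, and a change is the mean of iCM minus the mean of D29 on that scale (n = 2 each, with its standard error from the fit of all 34 arrays). Both sets of arrays carried markers of heart muscle. Troponin T, Tnnt2, was at 7.62 and 7.21 on the iCM arrays, against 6.54 and 8.15 on the D29 arrays, and the alpha heavy chain Myh6 was at 7.45 and 7.14, against 7.06 and 8.39. For both genes the iCM values lay between the 2 D29 values, and neither gene was called. The marker Actn2 also lay between the D29 values. The 4 probes of titin, Ttn, were all lower in iCM, with changes from -4.37 to -2.09. Tnnt2 and Myh6 were thus bright on all 4 arrays, but markers of other cells were present too. In bulk RNA, fewer cells of a type and less RNA per cell cannot be told apart.

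The 2 D29 arrays differed far more than any other pair. They correlated at r = 0.8944 across genes, against 0.9941 for the iCM pair, and 8214 of 19408 genes (42.3%) were at least 2-fold apart between them. The iCM arrays were 2-fold apart for 497 genes. Replicate 1 was higher for 4334 of the 8214 genes and replicate 2 for 3880. Replicate 1 carried endoderm and fibroblast transcripts: Afp, the fetal liver protein, was at 5.66 in replicate 1 and -7.02 in replicate 2, and the matrix proteoglycan Dcn at 7.66 and -2.15. Replicate 2 carried immediate early transcripts: the phosphatase Dusp2 was at -0.82 in replicate 1 and 7.30 in replicate 2, and the activity-induced Arc at -1.30 and 5.44. Of the 33 cell cycle genes, 28 were 2-fold higher in replicate 1, and of the 24 sarcomere genes 19 were 2-fold higher in replicate 2. Replicate 2 resembled the D9 arrays of its line more (r = 0.936, the mean of its correlations with each) than replicate 1 did (r = 0.896). The iCM arrays correlated with D29 replicate 1 at 0.881 and with replicate 2 at 0.837, also as means.

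A gene was called where limma's adjusted p over all genes was under 0.05 and the change at least 2-fold. It is said to hold where, in addition, each of the 4 differences between an iCM and a D29 array was at least 2-fold in the same direction. The fit of all 34 arrays assumes 1 spread for all groups, which understates that of D29: the SD of the difference between replicates was 1.733 there and 0.45 for iCM. A second fit used the 4 arrays alone, and a gene that held and was called in both is named as such. The smallest adjusted p that this second fit gave for any gene was 0.035. The iCM arrays shared 1 slide and the D29 arrays another, scanned at another time, and these cannot be told apart from the difference between the cells. Levels at the bottom of the scale were often not well above background. Of the rises described, those with signal on only 1 D29 array were Xirp2, Npr3, Agtr2, Gsc, C1qa, C1qc, Tyrobp, Adgre1, Ptprc, Oas1a, Ifi44, Oasl2, C1s1, Cfb, Ccl8, Cxcl13, Tcf21, Lrrn4, Col14a1, Mmp3, Spp1, Rgs5, Lyve1, Emcn, Myh1, Myh2, Krt7, Hoxa5, Hoxb5, Hoxc4, Alas2 and Eif2s3y. Falls with signal on only 1 iCM array were Ckmt2, Eomes, Cxcl9, Tcf7, Tfap2c, Hoxb9 and Hbb-y. Alb, Pax7 and Cldn6 fell with signal on only 1 D29 array, and their bounds use a D29 mean that includes the other array. Probes of near-identical genes (Lyz1 and Lyz2, Oas1a and Oas1b, the H2 and globin genes) may take up each other's RNA.

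Of 19408 genes, 8244 (42.5%) were called, of which 3659 (18.9%) were higher and 4585 (23.6%) lower in iCM. Of these, 5191 (26.7%) held, 2274 (11.7%) higher and 2917 (15%) lower. The counts of rises and falls that held in each gene list are to be read beside these shares. The stricter set called in both fits had 1502 genes (7.74%), 550 (2.83%) higher and 952 (4.91%) lower. A further 3053 called genes did not hold, and for 295 of them the groups overlapped. Over all genes, with no other condition, the groups did not overlap for 12909 (66.5%). The split depended on scaling: 43.8% of the genes that held were higher in iCM under percentile scaling, 60.9% under quantile normalization and 63.6% with the authors' deposited log2 values. The median change over all genes was -0.15 under percentile scaling and 0.08 under quantile normalization, so changes near that size carry no direction. Some falls of dim genes were no longer called under another scaling: Lef1 changed by -0.52 under quantile normalization, and with the authors' deposited values Cbx7 by -0.86, Bmp10 by -0.91, Myod1 by -0.86 and Hbb-y by -0.82, all under 2-fold.

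**Figure D1:**
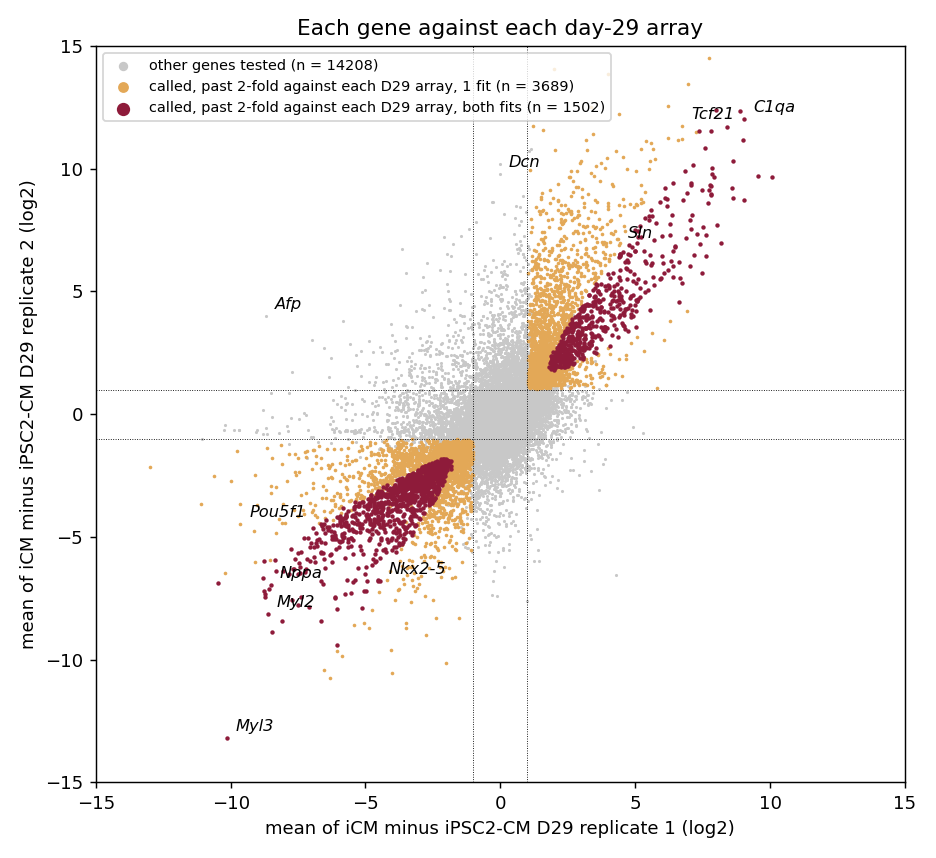
Each point is 1 gene: the mean of the iCM arrays minus D29 replicate 1 (x axis, log2) and minus D29 replicate 2 (y axis, log2). Dark points are the 1502 genes that held in both fits, orange points the others that held, grey points the remaining genes, and dotted lines mark 2-fold. Myl3, Myl2 and Nppa lie far from 0 on both axes, while Dcn lies near 0 against replicate 1 and Afp changes sign between the axes.

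The largest fall on genes well above background on all 4 arrays was that of Myl3, the ventricular and slow-muscle essential light chain. It was at -4.86 and -4.39 in iCM, against 5.52 and 8.57 in D29, a change of -11.67 ± 0.54 (limma, adjusted p = 2.32e-12, and 0.0376 on the 4 arrays). The regulatory light chain of the ventricle, Myl2, was at -4.46 and -1.75 in iCM, against 5.52 and 5.03 in D29 (-8.38 ± 0.49, adjusted p = 5.23e-11, and 0.0397 on the 4 arrays). For both genes every D29 array lay more than 6 log2 units above every iCM array. The neoCM arrays were higher still, with Myl3 at 9.05 and 9.15 and Myl2 at 8.54 and 8.90, and the D9 arrays had Myl3 at 8.75 and 9.29.

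The light chains of the atrium and of fetal muscle went the other way. Myl4, the fetal and atrial essential light chain, was at 7.63 and 7.28 in iCM, against 5.53 and 5.46 in D29 (1.96 ± 0.16, adjusted p = 6.26e-09, held). Myl1, an essential light chain of fast skeletal muscle, was at 5.93 and 5.80 in iCM, against 2.77 and 3.25 in D29 (2.86 ± 0.40, adjusted p = 4.91e-06, and 0.0393 on the 4 arrays). Myl1 held too. The atrial regulatory light chain Myl7 was at 6.97 and 6.71, against 3.68 and 5.94; it was called (2.03 ± 0.46, adjusted p = 0.000757), but the closest pair of arrays was less than 2-fold apart. The light chain kinase Mylk3 was not called (-1.29 ± 0.69, adjusted p = 0.11). Within the list of ventricular genes 5 of 8 fell and held, with 1 rise, and 3 of the falls were in both fits. The rise was that of Lbh, a transcription cofactor of limb and heart, at 4.74 and 4.70 in iCM, against 1.06 and 3.04 in D29. Irx3, a homeobox gene of the conduction system, fell (-5.61 ± 0.60, adjusted p = 1.5e-07).

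Among 24 sarcomere genes 2 rose and 5 fell and held, beside 11.7% and 15% of all genes, and 17 did not hold. Myh7, the beta heavy chain of fetal ventricle, was at -0.04 and -0.04 in iCM, against 3.23 and 6.71 in D29 (-5.01 ± 0.61, adjusted p = 8.3e-07). Tnni1, the slow and fetal troponin I, was at -1.11 and -1.08, against 1.97 and 5.57 (-4.87 ± 0.63, adjusted p = 2.01e-06). Neither passed the fit on the 4 arrays, in which both D29 values enter with their own spread (adjusted p = 0.0924 and 0.101). Tcap, the titin cap of the Z-disc, rose: it was at 4.88 and 4.82 in iCM, against 2.35 and 1.37 in D29 (2.99 ± 0.32, adjusted p = 1.82e-07, and 0.0466 on the 4 arrays). Myom2, an M-band protein of adult heart and fast muscle, was at 6.33 and 5.85, against 2.35 and 4.39, and held. The Z-disc actinin Actn2, like most of the list, did not hold: it was at 3.17 and 3.33 in iCM, between the D29 values of 1.75 and 5.63. The median of the list was 3.16 and 3.26 in iCM, against 2.35 and 4.42 in D29.

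**Figure D2:**
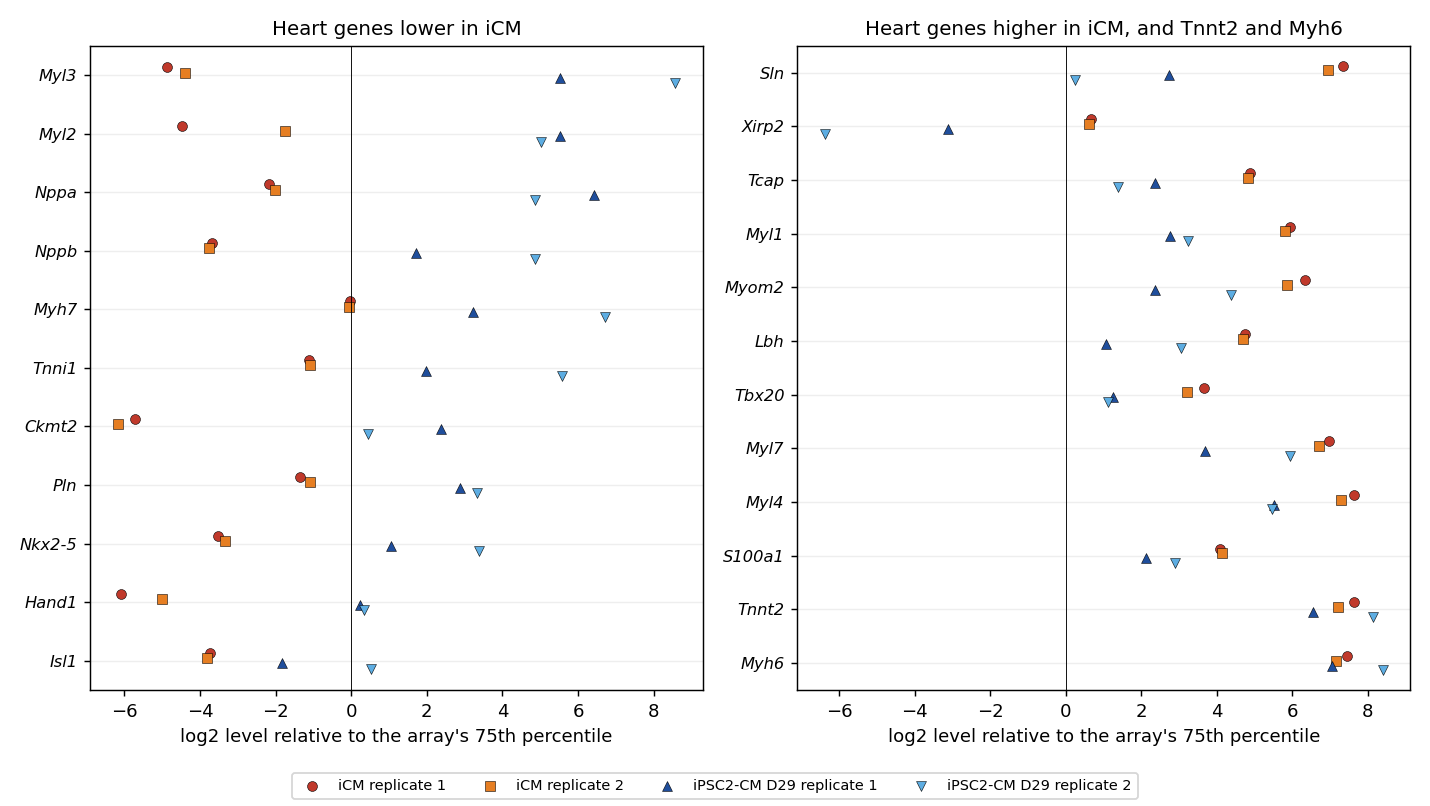
Log2 level relative to the array's 75th percentile (x axis) for heart genes (rows), with 1 point for each iCM and D29 array. In the left panel every D29 point lies right of both iCM points, from Isl1, the closest, to Myl3. In the right panel the iCM points lie right of the D29 points down to S100a1, while Tnnt2 and Myh6 lie together.

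Both natriuretic peptides, hormones of the stretched or fetal heart, were far lower in iCM. Nppa was at -2.16 and -2.02 in iCM, against 6.43 and 4.86 in D29 (-7.73 ± 0.34, adjusted p = 1.07e-12, and 0.035 on the 4 arrays). Nppb was at -3.67 and -3.77, against 1.71 and 4.86 (-7.01 ± 0.60, adjusted p = 8.62e-09). No iCM array came within 5 log2 units of a D29 array for either peptide. Of 10 fetal and stress genes 4 fell and 2 rose and held. The rises were Xirp2, an actin-binding protein of the intercalated disc (5.39 ± 0.85), and the smooth muscle actin Acta2, at 7.45 and 7.28 in iCM, against 5.14 and 5.95 in D29. The related Xirp1 reached 2.92 in D29 replicate 2 but -2.71 in replicate 1, against -2.40 and -2.37 in iCM, and did not hold. Among receptors of these and other hormones, 6 of 15 adrenergic and peptide receptors rose and held, none fell, and none passed both fits. Npr3, the natriuretic peptide clearance receptor, was at 1.57 and 1.85 in iCM, against -2.29 and -6.88 in D29. Agtr2, an angiotensin receptor of fetal tissue, was at -0.14 and 0.06, against -4.62 and -7.70, and the endothelin receptor Ednrb rose by 3.69 ± 0.56 (adjusted p = 1.27e-05).

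Of 15 calcium-handling genes 2 rose and 3 fell and held, near the 11.7% and 15% of all genes. Phospholamban, Pln, a brake on the calcium pump of the sarcoplasmic reticulum, was at -1.35 and -1.08 in iCM, against 2.87 and 3.33 in D29 (-4.31 ± 0.48, adjusted p = 2.91e-07, and 0.035 on the 4 arrays). Sarcolipin, Sln, the related brake found in atrium and skeletal muscle, was at 7.34 and 6.96, against 2.75 and 0.25 (5.65 ± 0.55, adjusted p = 5.11e-08, and 0.0528 on the 4 arrays). The 2 inhibitors of the pump were thus changed in opposite directions, and both held. The pump itself, Atp2a2, was at 4.88 and 5.03 in iCM, between the D29 values of 3.44 and 6.65, and was not called. The neoCM arrays were high in both inhibitors, with Pln at 5.71 and 5.71 and Sln at 7.43 and 7.36. Hrc, a calcium-binding protein of the sarcoplasmic reticulum, and Casq1, calsequestrin of skeletal muscle, fell by 3.66 and 2.73 on the log2 scale, and S100a1, a calcium sensor of muscle, rose by 1.61.

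Among 15 channel and connexin genes 3 fell and 1 rose and held, near the 15% and 11.7% of all genes. None of these changes was in both fits. The repolarising potassium channels Kcnq1 and Kcnh2 fell by 4.10 and 3.43, and the calcium channel subunit Cacnb2 by 3.05 on the log2 scale. Kcnj2, the channel that sets the resting potential, was at -5.63 and -5.63 in iCM, against -6.88 and -7.52 in D29. It was well above background on only 1 iCM array and on neither D29 array, so no fold can be given. The atrial potassium channel Kcna5 held as lower, but its 2 probes disagreed, and the mean over them gave a change of 1.26 in the other direction.

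Of 15 cardiac transcription factors 3 fell and 1 rose and held, near the 15% and 11.7% of all genes, and 11 did not hold. Nkx2-5, which marks cardiac progenitors and muscle, was at -3.51 and -3.34 in iCM, against 1.05 and 3.37 in D29 (-5.64 ± 0.57, adjusted p = 7.67e-08, and 0.0473 on the 4 arrays). Hand1, of the early left ventricle, was at -6.09 and -4.99, against 0.23 and 0.33 (-5.82 ± 0.89, adjusted p = 1.3e-05, and 0.0361 on the 4 arrays). Isl1, of second heart field progenitors, was at -3.72 and -3.81, against -1.82 and 0.52, and held. Nkx2-5 and Hand1 held too. Tbx20, a T-box factor of the heart, went the other way, at 3.65 and 3.22 in iCM, against 1.25 and 1.11 in D29 (2.25 ± 0.18, adjusted p = 2.45e-09, and 0.0456 on the 4 arrays).

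None of the 3 factors delivered to iCM was called. Mef2c was at -0.82 and -1.20 in iCM, against -1.89 and -1.04 in D29 (0.46 ± 0.46, adjusted p = 0.399). Gata4 was at 2.01 and 2.66, against 1.85 and 2.10 (0.36 ± 0.17, adjusted p = 0.0662). Tbx5 was at 0.11 and 0.30, between the D29 values of 0.72 and -0.26 (-0.03 ± 0.32, adjusted p = 0.95). The arrays do not tell viral from endogenous transcripts unless a probe lies outside the delivered sequence, which was not examined.

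Genes that mark the adult heart moved in both directions. Of 15 mature heart isoforms 6 fell and 3 rose and held, with 4 of the falls and 1 of the rises in both fits. Ckmt2, the mitochondrial creatine kinase of striated muscle, was at -5.72 and -6.17 in iCM, against 2.38 and 0.45 in D29 (-7.36 ± 0.47, adjusted p = 1.53e-10, and 0.0376 on the 4 arrays). Its cytosolic partner Ckm was not well above background on either iCM array and was at least 25.9-fold lower (adjusted p = 2.49e-10). Such a bound sets, for each array of the dim side, the larger of the gene's signal and the lowest signal well above background against the mean of the bright side. A single array of the bright side can thus lie closer than the bound. Cox6a2, a muscle subunit of cytochrome oxidase, was at 2.34 and 2.25, against 6.02 and 8.27 (-4.85 ± 0.39, adjusted p = 3.86e-09).

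Genes of glucose uptake, glycolysis and the response to low oxygen fell: 10 of 29 fell and held, none rose, and 3 of the falls were in both fits. Slc16a3, the lactate exporter MCT4, was at -0.38 and -0.11 in iCM, against 4.35 and 5.29 in D29 (-5.07 ± 0.24, adjusted p = 4.02e-12, and 0.0374 on the 4 arrays). Pdk1, which keeps pyruvate out of the mitochondrion, was at -0.90 and -0.71, against 2.23 and 2.90 (-3.37 ± 0.26, adjusted p = 1.67e-09, and 0.0376 on the 4 arrays). Slc2a1, the glucose transporter GLUT1, was at 3.37 and 3.24, against 5.58 and 6.62, and held. In each of these 3 genes both D29 arrays were above both iCM arrays by more than 2 log2 units. The median of the list was 3.37 and 3.24 in iCM, against 3.83 and 5.53 in D29, and its median change was -1.28 beside -0.15 over all genes. In the same list the hypoxia-induced carbonic anhydrase Car9 was high only in D29 replicate 2, at 3.01, against -0.58 in replicate 1 and -0.92 and -0.98 in iCM.

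Mitochondrial fuel use gave fewer calls that held. None of 25 respiratory chain genes held, although 8 were called lower: their changes ran from -1.21 to 0.33, and D29 replicate 2 was at least 2-fold above replicate 1 in 18 of them. Of 30 genes of fatty acid oxidation 4 fell and none rose and held, a share of falls near the 15% of all genes. Cpt1b, the muscle gate for fatty acids into the mitochondrion, was at -1.71 and -1.71 in iCM, against 0.77 and 2.44 in D29 (-3.31 ± 0.32, adjusted p = 3.57e-08). Fabp3, the heart fatty acid binding protein, was at 3.22 and 2.96, against 5.11 and 6.76, and the nuclear receptor Esrrg at -3.57 and -3.24, against -1.93 and 0.94. All 3 genes held. Fabp4, the form of fat cells, macrophages and endothelium, was at 6.82 and 6.58 in iCM, against 5.84 and 0.18 in D29, and did not hold.

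The median of the cell cycle list was -0.41 and -0.29 in iCM, between the D29 values of 2.65 and -1.11. Of 33 genes 6 fell and 1 rose and held, a share of falls near the 15% of all genes. Of the falls 2 were in both fits, and 15 genes were called lower. Ccne2, cyclin E2 of the entry into replication, was not well above background on either iCM array, with D29 at -3.74 and -2.70, and was at least 7.17-fold lower (adjusted p = 8.86e-10, and 0.0376 on the 4 arrays). The replication licensing factor Cdc6 was at -5.01 and -4.80 in iCM, against -0.64 and -2.85 in D29, and Rrm2, which makes deoxynucleotides, at 1.62 and 1.48, against 5.19 and 3.14. These 2 genes held. The mitotic kinase Bub1 was at -3.67 and -3.75 in iCM, between D29 values of 1.02 and -6.23. Ccnd2, cyclin D2, rose by 1.35 ± 0.15 (adjusted p = 2.05e-07), but no gene of the list held as a rise under quantile normalization or with the authors' deposited values. Among 15 cell cycle inhibitors and senescence genes 3 rose and held: Cdkn2a, the Ink4a/Arf locus (5.59 and 5.26 in iCM, against 3.91 and -0.11 in D29), Cdkn2c and Cdkn1c. Lmnb1, the nuclear lamin whose loss marks senescent cells, was at -1.23 and -1.81, against 2.64 and 0.99, and was the 1 fall that held. Over all genes 11.7% rose and 15% fell and held.

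Transcripts of the pluripotent state were lower in iCM. Of 17 genes tested 10 fell and 1 rose and held, with 4 falls in both fits. Lin28b, which blocks let-7 microRNAs, was not well above background on either iCM array, against 2.18 and -1.42 in D29, and was at least 86.9-fold lower (adjusted p = 2.43e-09, and 0.0472 on the 4 arrays). Tdgf1, the Nodal co-receptor Cripto, was at -0.55 and -1.52 in iCM, against 5.14 and 4.04 in D29 (-5.63 ± 0.38, adjusted p = 2.93e-10, and 0.0376 on the 4 arrays). The 3 probes of Tdgf1 differed in size, from -5.63 to -0.49. Pou5f1, which encodes Oct4 and was delivered to make the iPSCs, was at 2.41 and -2.73 in D29. Against the D29 mean it was at least 59.9-fold lower in iCM (limma, adjusted p = 1.57e-05, and 0.0997 on the 4 arrays). The D29 arrays thus differed from each other by more than 5 log2 units in Pou5f1, and the closest pair with iCM was 4.03 apart. Whether its probe reads delivered or endogenous RNA was not examined. Of the other delivered iPSC factors Myc held as lower (0.67 and 0.58 in iCM, against 5.02 and 2.16 in D29), Klf4 was not called (-0.01 ± 0.17, adjusted p = 0.974), and Sox2 was not tested. Dnmt3l, the partner of the de novo DNA methyltransferases, rose, at -2.52 and -2.54 in iCM, against -4.47 and -4.83 in D29 (2.13 ± 0.24, adjusted p = 2.75e-07, and 0.0461 on the 4 arrays). Tet1, Ezh2 and Cbx7, which act on DNA and histone methylation marks, fell by 2.80, 2.03 and 1.68 on the log2 scale. In that list 4 of 19 genes fell and held, beside 15% of all genes.

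Early mesoderm genes gave 4 falls and 1 rise that held among 12, beside 15% and 11.7% of all genes. Mesp1, of the first cardiac mesoderm, was not well above background on either iCM array and was at -3.04 and -4.37 in D29 (at least 5.13-fold lower in iCM, adjusted p = 5.99e-08, and 0.0425 on the 4 arrays). Eomes was at -6.30 and -6.31, against -2.57 and -2.87, and passed both fits. On the D9 arrays Mesp1 was at -7.48 and -7.51 and Eomes at -4.83 and -4.72, below the D29 arrays. All D29 values of these genes lay below the 75th percentile. Gsc, a gene of the organiser, rose, at -0.32 and -0.36 in iCM, against -3.22 and -7.70 in D29.

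Imprinted growth genes, which are read from 1 parental copy, moved in both directions. Of 17 tested 11 fell and 3 rose and held, and 5 falls and 2 rises passed both fits. Igf2, the fetal growth factor, was at -5.18 and -5.24 in iCM, against -0.54 and -1.25 in D29 (-4.32 ± 0.39, adjusted p = 1.97e-08, and 0.0374 on the 4 arrays). Its clearance receptor Igf2r went the other way, at 2.90 and 2.96, against -0.61 and 0.44 (3.02 ± 0.21, adjusted p = 4.33e-10, and 0.0481 on the 4 arrays). Magel2, of the Prader-Willi region, was at -4.41 and -4.33, against 0.47 and 0.12 (-4.67 ± 0.14, adjusted p = 6.78e-15, and 0.035 on the 4 arrays). Grb10, a growth-inhibiting adaptor of insulin receptors, was at 1.21 and 0.39, against -4.31 and -4.70 (5.31 ± 0.27, adjusted p = 5.98e-12, and 0.035 on the 4 arrays). All 4 of these genes held. The D9 arrays of the same line had Grb10 at -4.23 and -3.34, while the other iPSC line at day 13 had 0.66 and 0.13, so the low level was shared by both times of 1 line. Igf1, the postnatal growth factor, rose by 5.32 ± 0.65 (adjusted p = 8.47e-07), with 5 probes between 0.49 and 6.17, and Igfbp2 by 3.49 ± 0.64 (adjusted p = 0.000105), with 4 rises and 1 fall that held among 15 genes of the IGF axis.

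**Figure D3:**
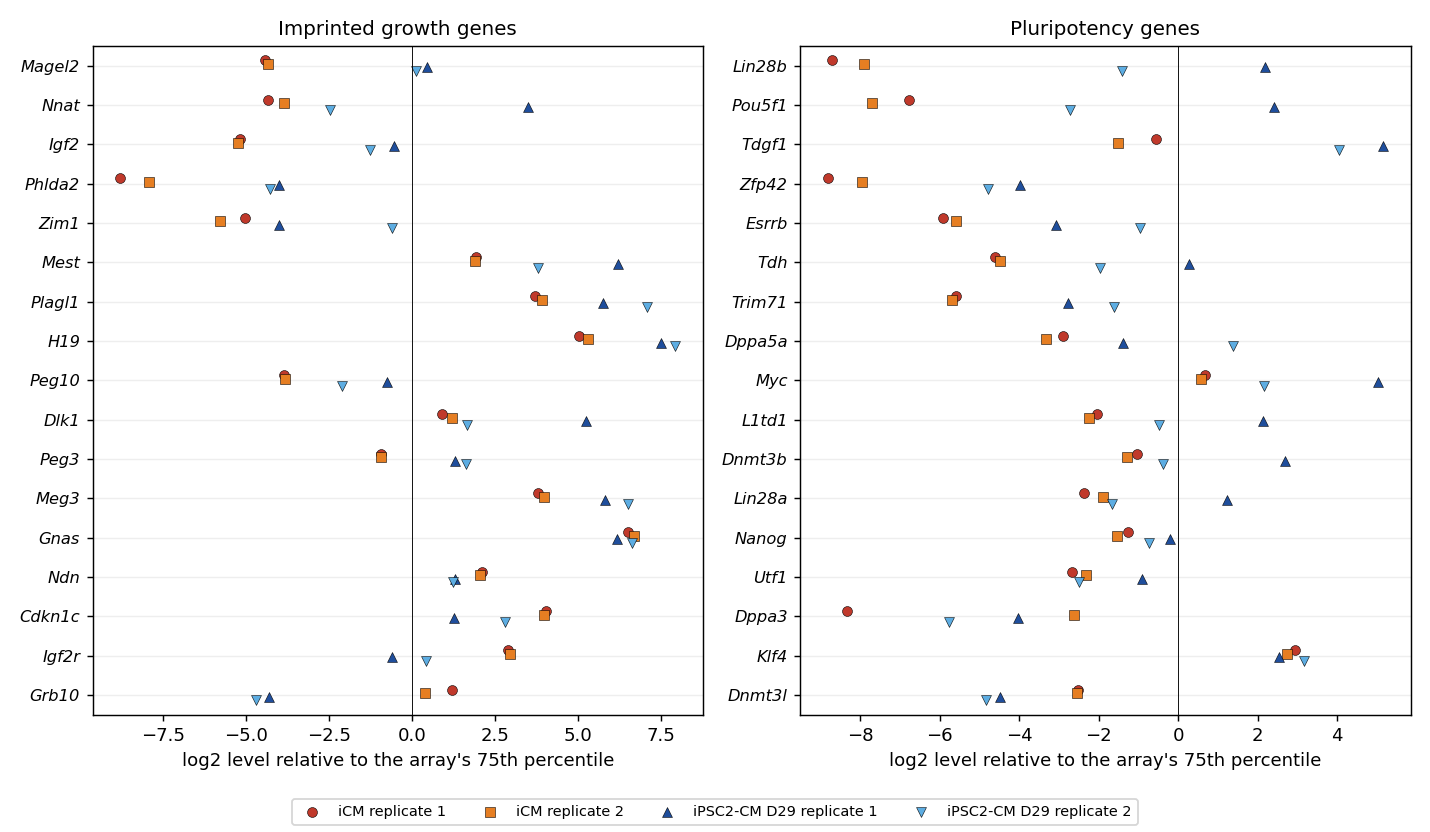
Log2 level relative to the array's 75th percentile (x axis) of every tested imprinted growth gene (left) and pluripotency gene (right), 1 point for each array, ordered by change. Both D29 points lie right of both iCM points in the upper rows, and left of them for Cdkn1c, Igf2r, Grb10 and Dnmt3l.

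Macrophage genes rose almost as a whole. Of 23 genes 21 rose and held and 15 passed both fits, against 11.7% and 2.83% of all genes. C1qa and C1qc, chains of the complement starter C1q that macrophages make, had the largest rises of the list: C1qa was at 4.32 and 4.31 in iCM, against -4.73 and -7.70 in D29 (10.53 ± 0.63, adjusted p = 6.98e-11, and 0.0376 on the 4 arrays). Tyrobp, an adaptor of myeloid receptors, was at 4.65 and 4.76, against -3.12 and -6.85 (9.69 ± 0.71, adjusted p = 1.03e-09, and 0.0437 on the 4 arrays). Each of these genes was well above background on only 1 D29 array. The list median was 2.90 and 2.88 in iCM, against -3.15 and -5.67 in D29, and 22 of the genes were well above background on both iCM arrays and 11 on both D29 arrays. The defining markers Adgre1, at 1.86 and 1.79 in iCM, against -5.24 and -5.70 in D29, and Ptprc, at -1.30 and -0.80, against -5.33 and -5.67, passed both fits. The neoCF arrays, of the kind of cell from which iCM were made, had a median of 3.20 and 2.66. The median was 4.29 and 4.33 in MGT D14, 4.80 and 5.14 in LacZ D14, and -1.66 and -1.43 in neoCM. Itgam, an integrin of myeloid cells, went against the list, at 3.34 and 3.38 in iCM, against 6.42 and 5.05 in D29, and held as lower, with its 3 probes between -2.38 and -0.69. Csf1r rose on its brightest probe, but its 3 probes ran from -1.25 to 3.52.

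Other myeloid genes were among the largest rises. Among genes well above background on all 4 arrays the highest rises included Ctss, a lysosomal protease (8.55 ± 0.38), Mpeg1, a pore-forming protein of phagocytes (8.31 ± 0.49), Mrc1, the mannose receptor (7.91 ± 0.93), Cd5l (8.14 ± 0.69) and the scavenger receptor Marco (7.76 ± 0.83). Cd5l was at 5.66 and 5.51 in iCM, against -2.10 and -3.01 in D29, and Marco at 7.16 and 6.64, against 1.39 and -3.10. Unlike C1qa, at 4.48 and 4.69 in MGT D14, Cd5l was at -1.61 and -1.42 there, and in neoCF at -0.997 and -2.70. Among genes not well above background on either D29 array, Ms4a4a, the Fc receptor Fcgr2b, the chemokine Ccl12 and the receptor Lilr4b were at least 309.7, 203.4, 155.4 and 139.5-fold higher in iCM. Their adjusted p was 3.92e-09 or lower, and each was at 0.035 on the 4 arrays. The part of macrophage RNA in the other rises was not tested.

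Interferon response genes, which cells switch on against viruses, were also higher in nearly every case. Of 32 genes 29 rose and held, and 7 rises passed both fits. Isg20, an exonuclease, was called lower (-1.39 ± 0.51, adjusted p = 0.0219), but did not hold, at 2.27 and 2.23 in iCM, against 2.14 and 5.13 in D29. The list median was 2.22 and 2.18 in iCM, against -1.03 and -3.41 in D29, with a median change of 3.48. D29 replicate 1 was 2-fold above replicate 2 in 19 of the 32. Oas1a, an enzyme that activates RNase L on double-stranded RNA, was at 3.69 and 3.34 in iCM, against -0.76 and -7.18 in D29 (7.49 ± 1.07, adjusted p = 5.98e-06, and 0.126 on the 4 arrays). Ifi44 was at 0.78 and 0.92, against -4.21 and -7.66 (6.79 ± 0.64, adjusted p = 3.37e-08), and Oasl2, at 2.50 and 2.71, against -0.40 and -7.71 (6.66 ± 1.22, adjusted p = 0.000101). All 3 genes held, and the distance from iCM was larger to D29 replicate 2. The list was also high in MGT D14, with a median of 3.18 and 3.03, and in LacZ D14, with 3.07 and 2.39. It was lower in neoCF, with 1.14 and 0.57. The macrophage genes were high on the same MGT D14, LacZ D14 and iCM arrays, and their part in the interferon genes was not tested.

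**Figure D4:**
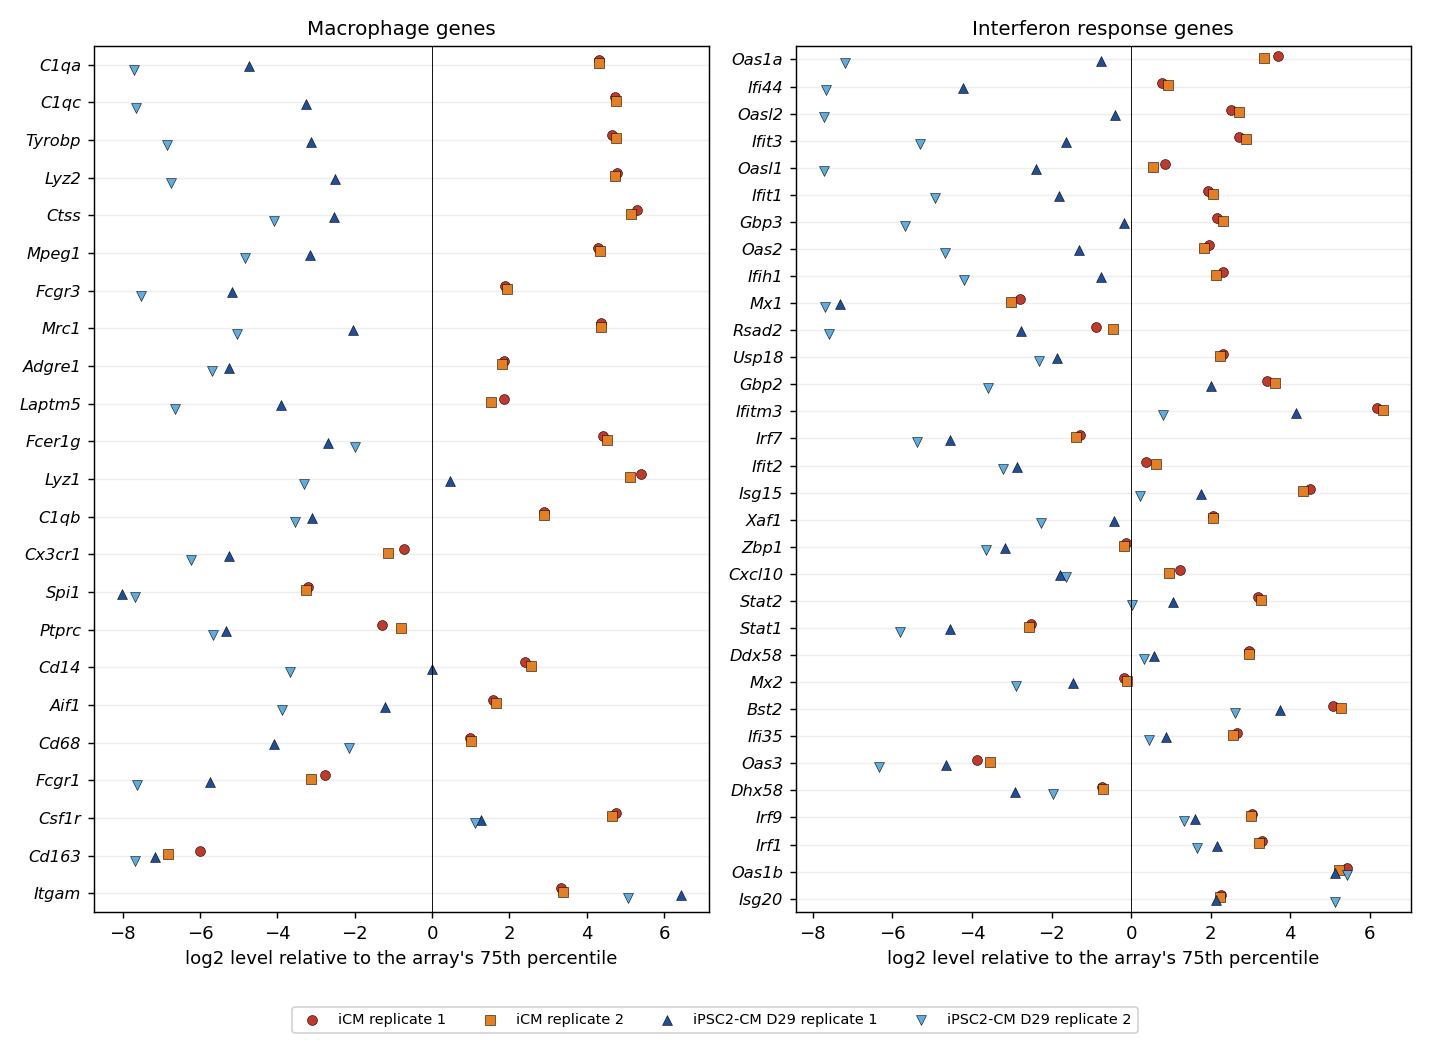
Log2 level relative to the array's 75th percentile (x axis) of every tested macrophage gene (left) and interferon response gene (right), 1 point for each array, ordered by change. The iCM points lie together and right of the D29 points in all rows but Itgam on the left and, on the right, Oas1b, where all 4 points meet, and Isg20, where D29 replicate 2 is higher.

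Interferon acts on many of these genes through a short promoter element. The sequences before the annotated starts of 3 members are shown because the genes rose together and each holds the element. They were picked after the values were seen, come from RefSeq (GRCm38.p6), and run 5′ to 3′ on the gene's strand for 250 bases up to the start. Capitals mark matches, on either strand, to GAAA, then any 2 bases, then GAAA, a pattern found in the interferon-stimulated response element. Oas1a lies at chr5:120907526-120907775 (minus strand), Cxcl10 at chr5:92348890-92349139 (minus strand) and Ifit3 at chr19:34583279-34583528 (plus strand).
Oas1a: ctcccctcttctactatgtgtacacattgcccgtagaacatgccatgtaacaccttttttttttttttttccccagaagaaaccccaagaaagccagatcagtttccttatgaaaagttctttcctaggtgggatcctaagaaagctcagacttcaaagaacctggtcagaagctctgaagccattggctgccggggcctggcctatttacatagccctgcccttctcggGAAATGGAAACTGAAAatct
Cxcl10: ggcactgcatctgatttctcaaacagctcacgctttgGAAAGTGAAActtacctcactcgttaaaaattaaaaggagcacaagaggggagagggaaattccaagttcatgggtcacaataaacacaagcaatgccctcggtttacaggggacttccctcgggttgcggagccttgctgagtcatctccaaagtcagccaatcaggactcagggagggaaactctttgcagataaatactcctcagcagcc
Ifit3: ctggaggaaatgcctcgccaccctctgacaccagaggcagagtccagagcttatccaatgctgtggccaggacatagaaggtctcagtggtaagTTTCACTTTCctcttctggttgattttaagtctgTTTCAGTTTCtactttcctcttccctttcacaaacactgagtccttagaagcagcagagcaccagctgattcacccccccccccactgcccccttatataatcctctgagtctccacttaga
The 2 matches of Oas1a overlap each other. Of the 32 interferon genes 24 had a promoter entry (300 bases, 50 of them after the start), and 14 of these held a match (58.3%), against 3.76% of the 14776 tested genes with an entry. In the macrophage list 2 of 17 genes held one, and in the fibroblast list 0 of 15. Of the genes shown, the chemokine Cxcl10 was at 1.22 and 0.94 in iCM, against -1.78 and -1.64 in D29 (2.79 ± 0.31, adjusted p = 2.39e-07, and 0.0376 on the 4 arrays). Ifit3, which binds viral RNA with its relatives, was at 2.72 and 2.88, against -1.64 and -5.30, and held.

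Complement and chemokine genes rose too. Of 17 complement genes 14 rose and held and none fell, 2 of them in both fits. C1s1, a protease of the classical pathway, was at 4.83 and 4.90 in iCM, against -0.80 and -5.93 in D29 (8.23 ± 0.87, adjusted p = 1.34e-07), and its partner C1ra at 5.01 and 4.98, against 2.13 and -4.26. Cfb, of the alternative pathway, was at 3.04 and 3.19, against 1.10 and -7.63. The second D29 array was the lower in each. Of 24 chemokines and cytokines 14 rose and 1 fell and held, with 6 rises and the fall in both fits. Ccl8 was at 3.16 and 3.03 in iCM, against -4.75 and -6.70 in D29 (8.82 ± 0.56, adjusted p = 1.34e-10, and 0.0361 on the 4 arrays). Cxcl13, which attracts B cells, was at 4.91 and 4.84, against -1.33 and -7.69, and Ccl6, of macrophages, at 6.12 and 6.06, against 2.67 and -5.33. The fall was that of Cxcl9, whose 2 probes disagreed in direction. The acute phase protein Saa3 was at 5.15 and 5.02 in iCM, against -2.84 and -4.57 in D29 (8.79 ± 0.34, adjusted p = 2.32e-13, and 0.035 on the 4 arrays).

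For antigen presentation 8 of 16 genes rose and 1 fell and held. Psmb9 and Psmb8, subunits of the immunoproteasome, were at 1.74 and 1.73, against -1.13 and -1.91, and at 2.21 and 2.29, against -1.004 and -3.18. Psmb9 passed both fits. Nlrc5, the activator of class I genes, rose by 3.04 ± 0.54 (adjusted p = 6.86e-05), with its 2 probes at 3.04 and 0.45. The class II gene H2-Ab1 was lower in iCM, at -3.56 and -3.35, against -1.70 and -0.14 in D29.

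Fibroblast identity genes rose without a fall, but the 2 D29 arrays were far apart. Of 24 genes 20 were called higher, 12 held and 1 passed both fits. D29 replicate 1 was at least 2-fold above replicate 2 in 21 of them. Tcf21, a factor of epicardium-derived fibroblasts, was at 4.01 and 4.36 in iCM, against -2.56 and -7.54 in D29 (9.24 ± 0.82, adjusted p = 1.28e-08, and 0.0635 on the 4 arrays). Pdgfrb, a growth factor receptor of mesenchyme, was at 4.27 and 4.32, against 1.37 and -3.81, and Dpep1, a surface dipeptidase, at 4.70 and 4.75, against 1.09 and -3.24. In all 3 genes even the higher D29 array lay more than 2 log2 units below iCM. For Dcn the iCM values of 7.87 and 7.39 met 7.66 on D29 replicate 1, and for the related Lum 6.001 and 5.77 met 6.16, so neither held. The list median was 4.08 and 4.13 in iCM, against 1.80 and -2.44 in D29, 3.61 and 3.75 in neoCF and -2.72 and -2.90 in D9.

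Of 13 epicardial and mesothelial genes 9 rose and 3 fell and held. Lrrn4 and Upk3b, of mesothelium, were at 3.27 and 3.27, against -0.41 and -6.23, and at 3.77 and 4.02, against 1.00 and -4.21. The 3 falls were the keratins Krt8, Krt18 and Krt19, which many epithelia share, with changes of -1.86, -1.86 and -2.50. Of 21 collagen genes 13 rose and 1 fell and held, 3 rises in both fits. The fibrillar chains Col1a2 and Col3a1 were at 7.71 and 7.37, against 5.13 and 0.78, and at 7.15 and 6.87, against 4.18 and -1.01. Col14a1, which binds fibrils, rose by 8.33 ± 0.92 (adjusted p = 2.45e-07), and the cartilage collagen Col2a1 fell by 4.18 on the log2 scale. Among 31 matrix and proteoglycan genes 18 rose and none fell and held. Mmp3, a matrix-degrading protease, was at 6.39 and 6.25 in iCM, against 2.34 and -7.55 in D29, Thbs2 at 3.84 and 3.98, against -1.30 and -4.67, and osteopontin, Spp1, at 3.73 and 3.76, against -0.38 and -5.63. All of these were far lower in D29 replicate 2 than in replicate 1. The matricellular protein Ccn5 had the largest rise of all genes well above background on all 4 arrays, at 6.03 and 5.92 in iCM, against -1.60 and -4.86 in D29 (9.20 ± 0.56, adjusted p = 8.26e-11, and 0.0419 on the 4 arrays). It was at 6.45 and 6.38 in MGT D14, at 6.27 and 6.39 in LacZ D14, and at -0.26 and -1.04 in neoCF.

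Growth factor pathways of mesenchyme changed in both directions. Of 26 TGF-beta and BMP genes 11 rose and 3 fell and held. Bmp6 was at 2.38 and 2.67 in iCM, against -2.10 and -4.93 in D29, the BMP antagonist Grem1 at 1.97 and 1.46, against -1.13 and -4.81, and Ltbp2, a matrix protein, at 4.62 and 4.74, against 1.42 and -1.17. The falls were all BMP ligands. Bmp10, of trabecular heart muscle, was at -4.78 and -4.91, against -2.91 and -2.74 (-2.02 ± 0.22, adjusted p = 1.79e-07, and 0.046 on the 4 arrays). Bmp5 was at least 4.50-fold lower in iCM, and Bmp7 was at -4.98 and -5.46, against -1.18 and 4.38. Of 26 Wnt genes 5 rose and 2 fell and held, beside 11.7% and 15% of all genes. Rspo3, which amplifies Wnt signals, was at 2.32 and 2.20, against -0.11 and -1.30, and Wnt5a at 1.34 and 1.48, against -0.28 and -1.35. Tcf7 and Lef1, nuclear partners of beta-catenin, fell by 3.16 and 1.38 on the log2 scale, the first in both fits. The 2 probes of Tcf7 were at -3.16 and -1.58, and Lef1 was no longer called under quantile normalization.

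Vascular genes were mixed. Of 15 smooth muscle and pericyte genes 5 rose and none fell and held, 3 of them in both fits. Myh11, the smooth muscle heavy chain, was at 0.34 and 0.34 in iCM, against -3.84 and -3.98 in D29 (4.25 ± 0.22, adjusted p = 1.03e-11, and 0.035 on the 4 arrays). Lmod1, a smooth muscle actin nucleator, was at least 8.95-fold higher, and the pericyte gene Rgs5 rose by 2.83 on the log2 scale. Of 18 endothelial genes 5 rose and 2 fell and held. Lyve1, of lymphatic vessels and of tissue macrophages, was at 2.48 and 2.45, against -3.06 and -5.59 (6.79 ± 1.03, adjusted p = 1.28e-05, and 0.0433 on the 4 arrays). Eng and Emcn rose by 3.25 and 3.82, while Egfl7, secreted by endothelium, was at 1.17 and 0.80, against 3.42 and 3.52 (-2.48 ± 0.27, adjusted p = 2.03e-07, and 0.0419 on the 4 arrays). Prox1, of lymphatic endothelium and of heart muscle, was at least 8.05-fold lower.

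Skeletal muscle genes moved in both directions. Of 16 tested 4 rose and 3 fell and held. The fast heavy chains Myh1 and Myh2 were at 1.61 and 1.67, against -3.59 and -7.71, and at 0.80 and 0.72, against -3.83 and -7.71, and Actn3, the fast-fibre actinin, was at 2.27 and 2.45, against -2.36 and -4.15 (5.62 ± 0.37, adjusted p = 2.8e-10, and 0.041 on the 4 arrays). The myogenic factors Myod1 and Pax7 were not well above background on either iCM array and were at least 3.90 and 4.39-fold lower than in D29, and the fast troponin C, Tnnc2, fell by 2.65 on the log2 scale.

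Some genes of lineages outside the heart were lower in iCM. D29 replicate 1 was 2-fold above replicate 2 in 19 of 24 endoderm, 12 of 16 epithelial and 10 of 14 neural genes. Of 24 endoderm and liver genes 9 fell and held, or 5 under quantile normalization. The iron carrier Trf was called higher, but did not hold, at 6.26 and 6.03 in iCM, against 6.45 and -2.48 in D29. Albumin, Alb, was not well above background on either iCM array and was at 4.94 and -5.91 in D29. Spink1, a secreted protease inhibitor, was at 2.93 and -3.04 in D29. The D29 mean of Spink1 was at least 64.3-fold above iCM, but the closest pair of arrays was 3.13 log2 units apart. Vil1, villin of the gut brush border, was at -1.64 and -0.26 in D29 and at least 34.6-fold lower in iCM (adjusted p = 4.94e-10, and 0.0374 on the 4 arrays). The list median was -5.24 and -5.23 in iCM, against 1.00 and -3.82 in D29. Of 16 epithelial genes 11 fell and 1 rose and held. Under quantile normalization 9 fell and 2 rose and held, and with the authors' deposited values 6 fell and 2 rose. Grhl2, an epithelial factor, was at least 11.5-fold lower in iCM (adjusted p = 2.25e-08, and 0.0396 on the 4 arrays), Tfap2c fell by 4.75 on the log2 scale, and the tight junction gene Cldn6 was at least 5.11-fold lower. The keratin Krt7 was the rise, at 2.40 and 2.41, against -0.26 and -5.52. Of 14 neural genes 5 fell and 1 rose and held, and the list median was -1.83 and -1.93 in iCM, between the D29 values of -0.01 and -3.18. Pax6 was at least 13.4-fold lower (adjusted p = 7.24e-08, and 0.0376 on the 4 arrays), Tubb3 fell by 2.78 on the log2 scale, and the intermediate filament Nes rose by 2.02 ± 0.16 (adjusted p = 2.45e-09).

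The Hox genes, which mark position along the body, gave 5 rises and 2 falls that held among 24, beside 11.7% and 15% of all genes. Hoxa5 was at -1.22 and -1.29 in iCM, against -4.51 and -7.71 in D29, and Hoxb5 and Hoxc4 rose by 3.12 and 3.54. The 2 falls were more posterior members, Hoxb9 (-5.80 and -6.07, against -0.26 and -2.68) and Hoxc10, at least 4.19-fold lower and in both fits. D29 replicate 1 was at least 2-fold above replicate 2 in 18 of the 24. Of 11 erythroid and globin genes Alas2, the heme synthesis enzyme of red cells, was at 5.44 and 5.58 in iCM, against -1.85 and -6.03 in D29 (9.45 ± 0.78, adjusted p = 5.3e-09, and 0.0498 on the 4 arrays). The embryonic globin Hbb-y was lower in iCM (-2.95 ± 0.53, adjusted p = 7.6e-05), and the adult globin Hbb-bt was not well above background on any of the 4 arrays. Of 13 granulocyte and mast cell genes Mcpt4 and Cpa3 rose and held, Mcpt4 at 0.32 and 0.78 in iCM, against -2.81 and -2.77 in D29. Cpa3 was well above background on only 1 iCM array and on neither D29 array, so no fold can be given. Neutrophil genes were dim: S100a9 was not well above background on either iCM array.

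**Figure D5:**
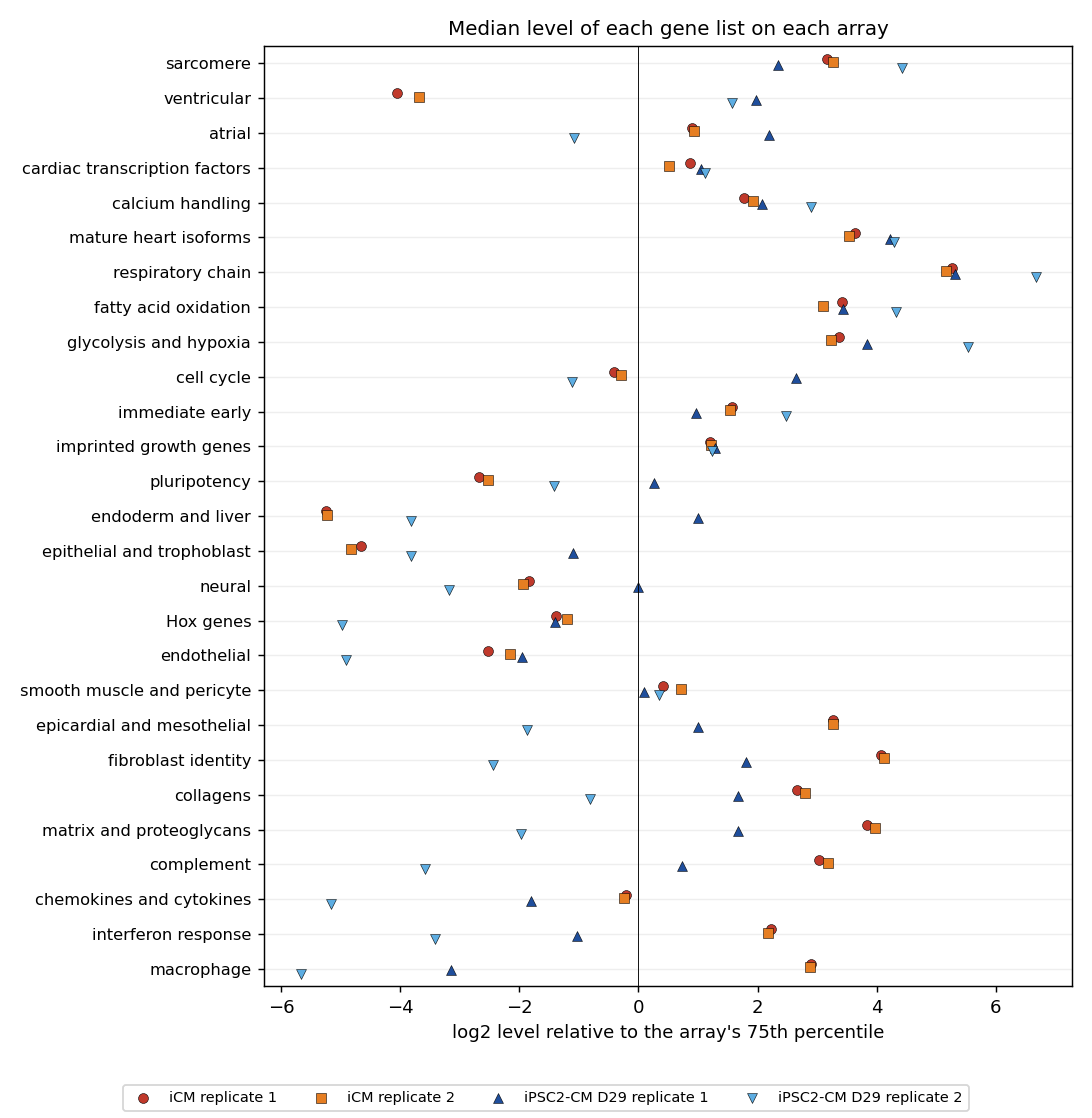
Median log2 level relative to the array's 75th percentile (x axis) of the genes of 27 lists (rows), 1 point for each iCM and D29 array. The iCM points nearly coincide in each row. They lie right of both D29 points from the epicardial to the macrophage list, and by little for Hox and smooth muscle genes. They lie left of both for ventricular, glycolysis, pluripotency, endoderm and epithelial genes. The same holds, in some by little, for cardiac factors, calcium handling, mature isoforms, respiratory chain, fatty acid oxidation and imprinted genes. They lie between the D29 points for sarcomere, atrial, cell cycle, immediate early, neural and endothelial genes.

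Among the largest single falls were genes of no list. Mgarp, a mitochondrial protein of steroid-making and low-oxygen cells, was at -2.91 and -3.19 in iCM, against 3.02 and 6.34 in D29 (-7.73 ± 0.56, adjusted p = 9.69e-10, and 0.0483 on the 4 arrays). The synaptic genes Lrrc4b and Syn3 and the testis helicase Ddx25 fell by 7.54, 7.00 and 6.96 on the log2 scale, and all 3 passed both fits. The 2 probes of Syn3 differed in size, at -7.00 and -0.59. Lrrc4b was at -5.27 and -5.07, against 1.46 and 3.28. Of genes not well above background on either iCM array, the incretin receptor Gipr was at 1.23 and 1.63 in D29 and at least 180.0-fold lower in iCM (adjusted p = 1.33e-11, and 0.035 on the 4 arrays). Rhox3c, a homeobox gene with near-identical copies, Ush1c, Clic6 and Ttyh1 were at least 130.4, 123.1, 109.4 and 101.9-fold lower. All but Ush1c passed both fits. Ush1c was at -1.05 and 2.82 in D29 (adjusted p = 0.0556 on the 4 arrays), and its closest pair of arrays was 5.85 log2 units apart.

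The groups also differed in Y-linked genes. Ddx3y was at 1.96 and 2.07 in iCM, against -8.05 and -7.64 in D29, where it was not well above background (at least 200.02-fold, adjusted p = 9.4e-22, and 0.035 on the 4 arrays). Eif2s3y and Uty, looked up after Ddx3y was seen, were at 1.40 and 1.25, against -5.58 and -7.68, and at -2.89 and -3.005, against -8.03 and -7.57. Kdm5d, looked up with them, did not hold, at -6.325 and -6.80 in iCM, against -8.02 and -7.69 in D29. It was well above background on only 1 iCM array and on neither D29 array. The D9 arrays of the same line were as low in Ddx3y, at -7.38 and -7.44, while the other iPSC line was at 3.44 and 3.44. Xist, the transcript of the inactive X, was at -0.72 and -1.11 in iCM, and at 1.76 and -3.62 on the D29 arrays. The part of the sex of the source cells in the other differences was not tested.

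Day 29 and day 9 of the line differed in 4705 genes (24.2%) by the fit of all arrays, 2882 (14.8%) higher and 1823 (9.39%) lower at day 29. On the spread of those 4 arrays alone limma called 0, with 2504 genes at an unadjusted p under 0.05. Against neoCM, 7573 genes (39%) were called for iCM and 7439 (38.3%) for D29, with the same neoCM arrays in both. For Myl2 the change from neoCM was -11.82 in iCM and -3.44 in D29, for Nkx2-5 it was -8.49 and -2.85, and for Sln -0.25 and -5.90. The last of these was not called for iCM (adjusted p = 0.715), and all the others were called.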

How the data were processed

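Total RNA was labelled with Cy3 and hybridised to single-colour Agilent arrays, per the labels' protocols. The deposited scanner files hold intensity per spot, background-adjusted with Agilent's Feature Extraction (10.7.3.1 in the headers), per the file headers. The authors also deposited log2 values for which the submitters' processing notes name limma, without a version. Their scale and centring are not stated, with column medians near 7.5. Probes were designed on mm9, per the file headers.

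Outlier spots were left out, log2 was taken of each processed intensity, repeat spots were averaged per probe, and the 75th percentile of the array was subtracted. Between 61.5% and 75.7% of spots on the 4 arrays were well above background, and no spot was saturated; 2 arrays a group limit the precision. Probes were named through RefSeq (GRCm38.p6): accessions named 26056, current symbols 3200 and synonyms 930, and 25495 stayed unnamed. A probe well above background on both arrays of any group was kept, and the brightest stood for its gene (19408 genes). Of 1143 genes that held with several probes, the probes differed in sign for 143.

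All 34 arrays entered 1 fit (limma 3.58.1, R 4.3.3, package data.table at version 1.17.8; 17 residual and 1.99 prior degrees of freedom) with Benjamini-Hochberg adjustment. The fit on the 4 arrays had 2 residual and 1.88 prior degrees of freedom. The scripts were tested on simulated data. Figures used Python 3.11.15, numpy 2.4.6, pandas 2.3.3 and matplotlib 3.10.9. Alternatives were quantile normalization, normexp, the authors' log2 values, filters, weights, blocks and leaving out each array. Named genes are, among those that held, the 8 highest and 8 lowest, the 5 brightest against an undetected side in each direction, up to 3 rises and 3 falls of each list, the light chains, the delivered factors and the largest gaps between the D29 arrays; the text names fewer, and adds markers and side values chosen after they were seen. The comparison and the gene lists were chosen with earlier results of these data known.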

Additional observations from a re-analysis of the deposited data

How the results depend on the processing

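Against 8244 genes called and 5191 that held (2274 higher, 2917 lower), quantile normalization left 1769 lower, normexp with quantile normalization 3248 held and 1096 lower, and the authors' log2 values 1426 lower. Requiring signal well above background on all 4 arrays left 3229 held and 1502 lower. The fit on the 4 arrays called 1507, 550 higher and 957 lower, and array weights 2156, of which 1878 held (1291 higher, 587 lower). A test against a 2-fold change called 4522. With a closest pair of at least 4-fold 2219 held (915 and 1304), and of any size 7942 (3527 and 4415). Leaving out 1 array gave 7586 to 9605 calls, 5663 to 8951 held, 2450 to 4006 higher and 3213 to 4945 lower; the highest were without D29 replicate 1. With the replicate number as a block 8249 genes were called and 5194 held. The deviations of same-numbered arrays correlated at -0.012, so the numbers do not pair the arrays. Slide as a random block called 8436. Day 29 against day 9 gave 0 calls on its own arrays.

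Of 217 named genes, 133 were no longer called on the 4 arrays and 92 with array weights; 8 were lost under quantile normalization and 8 with the authors' values. Where leaving out 1 D29 array or the other gave opposite signs, the changes without replicate 1 and without replicate 2 were Cnn1 -0.72 and 3.74, Alox5 -0.76 and 5.29, Tbx5 0.46 and -0.51, Klf4 -0.32 and 0.31, Actn2 -2.38 and 1.498, Nr2f1 3.96 and -2.50, Atp2a2 -1.70 and 1.52, Hspb7 -0.23 and 2.75, Xirp1 -5.31 and 0.32, Uqcrc1 -2.25 and 0.20, Bub1 2.52 and -4.72, Gdf15 -3.31 and 1.42, Dcn 9.78 and -0.03, Col9a1 2.04 and -4.86, Afp 4.00 and -8.68, Map2 7.21 and -2.08, Sfrp2 2.74 and -4.46, Uhrf1 0.53 and -5.07, Hoxd3 2.67 and -2.74, Hspa1a -5.98 and 1.45, Derl3 -5.10 and 1.14, Trf 8.62 and -0.31, Lum 8.65 and -0.28 and Ahsg 6.93 and -1.75. None of these held. Kcna5 turned to 1.26 as a mean over its probes. The causes were not tested.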
